A study of Mus musculus with 23 samples.

Results

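Mice that lack Aldh7a1 in astrocytes were compared with their control littermates on a diet with sulforaphane (SFN), a plant isothiocyanate. The comparison set 6 RNA-seq libraries of SFN-fed cKOAstro mice against 4 of SFN-fed ConAstro mice, 10 of the 23 libraries of the series. All were male Aldh7a1 flox/flox mice. The cKOAstro mice also carried CreER, a Cre recombinase that works only with a tamoxifen-type drug, in 1 copy of Slc1a3, and the ConAstro mice had no Cre. Both genotypes received 4-OHT (4-hydroxytamoxifen) at postnatal days 3 and 4 and the SFN diet from postnatal day 21, and cortex was taken at postnatal day 70. Cortical astrocytes were pulled out with magnetic beads against the astrocyte surface antigen ACSA-2, and each library came from 1 mouse. The deletion removes part of Aldh7a1 while counts cover the whole gene, and the Cre allele itself takes up 1 Slc1a3 copy, so both genes carry limits as readouts of this model.

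ALDH7A1 is a mitochondrial and cytosolic aldehyde dehydrogenase that acts in the breakdown of lysine, where it oxidizes the semialdehyde of alpha-aminoadipic acid. In people, loss of the enzyme causes pyridoxine-dependent epilepsy, in which the piled-up intermediate inactivates the active form of vitamin B6. Sulforaphane reacts with KEAP1 and so frees NRF2 (Nfe2l2), the transcription factor of antioxidant and detoxifying genes, and astrocytes are among the brain cells in which that pathway is most active.

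The 10 libraries were chosen by the measured level of 3 genes. Of 12 SFN-fed libraries, those labelled ConAstro replicate 1 and cKOAstro replicate 2 were left out because these genes stood at the level of the opposite genotype. Aldh7a1 was at 177, 221, 224 and 202 CPM (counts scaled to library size) in the ConAstro libraries, and between 42.8 and 57.8 CPM with a median of 49.2 in the cKOAstro libraries. The library labelled ConAstro replicate 1 held 55.3 CPM and the one labelled cKOAstro replicate 2 held 220.6 CPM. Slc1a3, which encodes the glutamate transporter GLAST and lies on chromosome 15 at 8634124 to 8710764 (GRCm38), was at 4159, 5096, 5623 and 4367 CPM in ConAstro against 1594 to 2764 CPM with a median of 2208 in cKOAstro. Esr1, the estrogen receptor gene whose ligand-binding domain is the part fused to Cre in CreER, was at 1.73, 1.18, 1.14 and 1.39 CPM against 17.2 to 24.3 CPM with a median of 20.9. The groups did not overlap for any of the 3 genes, which follows from how the libraries were selected, so no test is given. Just outside the rule, the 2 libraries left out were at 2084 CPM (labelled ConAstro) and 4410 CPM (labelled cKOAstro) for Slc1a3, and at 19.8 and 0.53 CPM for Esr1.

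**Figure D1:**
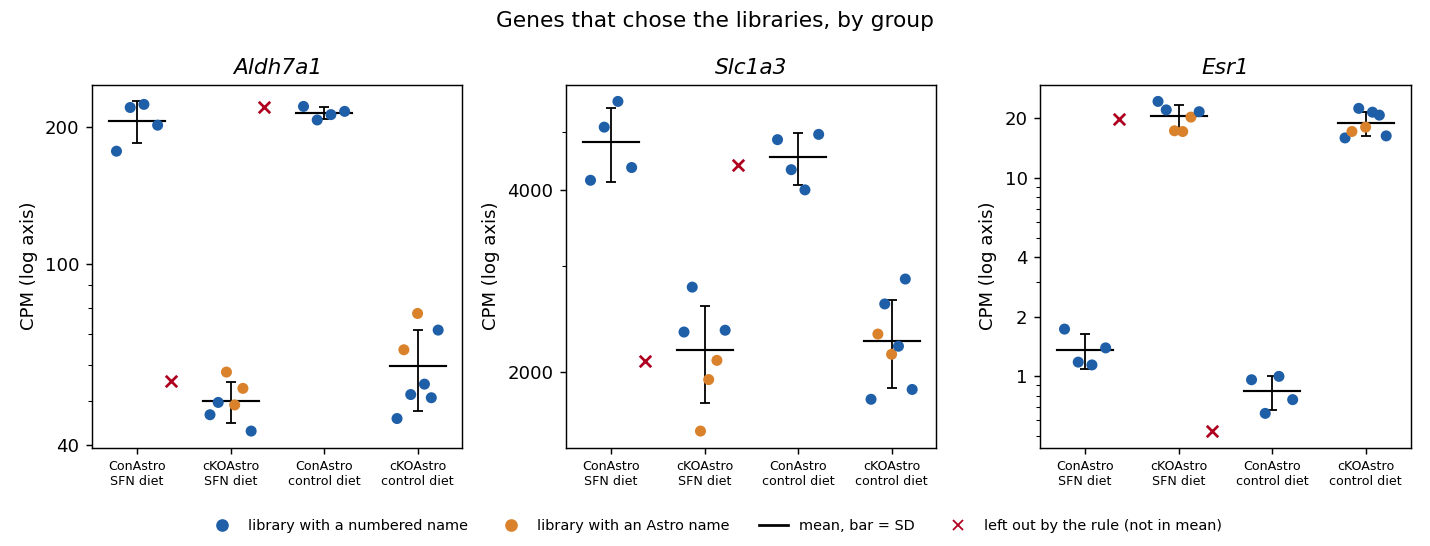
CPM on a log axis of the 3 genes that chose the libraries, 1 point for each library of the 4 groups, with the mean and SD as lines and crosses for the 2 libraries left out. The crosses sit with the opposite genotype, for example 55.3 CPM of Aldh7a1 in the library labelled ConAstro replicate 1.

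On the control diet, which took no part in the choice, the 3 genes gave log2 differences (cKOAstro minus ConAstro, ± SE, 7 against 4 libraries) of -1.86 ± 0.13 for Aldh7a1, -1.02 ± 0.13 for Slc1a3 and 4.48 ± 0.17 for Esr1. Their adjusted p-values there were 6.94e-05, 0.0168 and 1.2e-07 (edgeR quasi-likelihood test, Benjamini-Hochberg). The only other gene past the threshold of 0.05 on that diet was A630020A06 at 2.47 ± 0.27, and the 4 genes were 0.023% of 17406 tested. On the SFN diet the values of the rule genes were -2.05, -1.14 and 3.92.

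Library sizes overlapped between the genotypes. Totals ran from 75992248 to 219904257 counts in ConAstro and from 86276988 to 140464734 in cKOAstro, a mean log2 difference of 0.04 (exact two-sided permutation test over 210 regroupings, p = 0.929, smallest possible 0.00476). Without the deepest library, ConAstro replicate 3, it was 0.40 (exact two-sided permutation test, p = 0.0238). The names of the libraries did move with genotype. They fall into 2 kinds, and the 3 libraries whose names hold the word Astro (cKOAstro replicates 4, 5 and 6) were all cKOAstro, while the 7 libraries with numbered names were 3 cKOAstro and 4 ConAstro. The first principal component, 39.1% of the variance, put the Astro-named libraries at 35 to 46.9 and the numbered ones at -25.2 to -11.1. The main values are therefore also given for the numbered libraries alone. Among these the numeric prefixes of the names split further: 145 is ConAstro only, 143 is cKOAstro only, and 147 holds cKOAstro replicate 3 and ConAstro replicates 4 and 5. On the control diet all ConAstro names start with 143 and the cKOAstro names with 141, 146 or Astro. Prefix and genotype therefore cannot be told apart on that diet, and the interaction shares this limit.

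Beside the genes of the rule, no gene passed the test. Of 16705 genes tested over the 10 libraries, 2 had an adjusted p under 0.05 (0.012%), the rule genes Aldh7a1 and Esr1. The third rule gene, Slc1a3, did not pass. The libraries were chosen by these 3 genes, so their calls are no evidence, here or in the other fits of these libraries. The lowest adjusted p (edgeR) of any gene outside the rule was 0.31. At an unadjusted p under 0.05 there were 1505 genes higher (9.01%) and 989 lower (5.92%) in cKOAstro, and the log2 difference was above 0 for 50.9% of all genes, with a median of 0.01. The CPM of the 2 groups did not overlap for 479 higher genes (2.87%) and 280 lower genes (1.68%). The numbered libraries alone again gave 2 calls of 16591 (0.0121%), both rule genes, with 1298 genes at an unadjusted p under 0.05. DESeq2, a second count model, called 95 genes over the 10 libraries, 65 higher (0.383%) and 30 lower (0.177%), of which 92 were not rule genes. limma-voom with sample weights called 3, the rule genes. Of the 92, the CPM did not overlap in 86, but DESeq2 called 1 of them (Ciita) among the numbered libraries.

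The genes named next are the 10 higher and 10 lower ones of lowest unadjusted p, with a mean of at least 1 CPM and no overlap of the groups, so their lack of overlap is part of how they were picked. All have an adjusted p of 0.31. The lowest p belonged to Ciita, the master regulator of MHC class II genes (chromosome 16, 10480059 to 10528418). Its CPM was 3.11, 3.28, 2.68 and 3.45 in ConAstro and 0.988 to 1.78 with a median of 1.46 in cKOAstro, a log2 difference of -1.13 ± 0.19 (unadjusted p = 9.64e-05, DESeq2 adjusted p = 4.17e-06). Every cKOAstro library lay below every ConAstro library, the 3 Astro-named ones lowest at 0.988 to 1.35. The value was -0.90 ± 0.16 among numbered libraries and -0.10 ± 0.22 on the control diet.

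Several of the other lower genes are known from vessel walls, meninges or guidance. In these bulk libraries, fewer cells of a type and less RNA per cell cannot be told apart, and markers of mural cells and fibroblasts had medians of -0.47 and -0.76. Tfap2a, an AP-2 transcription factor, was at 1.86, 1.82, 1.73 and 1.51 CPM in ConAstro and at 0.695 to 1.25 with a median of 0.915 in cKOAstro, a log2 difference of -0.91 ± 0.20. Heyl, a Notch-responsive repressor found in mural cells, was at 69.9, 66.8, 52.5 and 58.4 CPM in ConAstro and at 29.5 to 49.6 with a median of 38.7 in cKOAstro, a log2 difference of -0.67 ± 0.15. Its highest cKOAstro value stood just under the lowest ConAstro value. Frem2, a protein of basement membranes, was at 37.8, 44.2, 42.0 and 39.4 CPM against 19.8 to 32.6 with a median of 23.8, a log2 difference of -0.67 ± 0.15. Serping1, the inhibitor of the first complement component, was at 9.84, 10.2, 9.63 and 8.66 CPM against 4.29 to 7.46 with a median of 5.70, a log2 difference of -0.70 ± 0.16. Lrrc32, which tethers latent TGF-beta to cell surfaces, had a log2 difference of -0.82 ± 0.19 and lay between 5.77 and 11.7 CPM in cKOAstro. Robo1, a Slit receptor in axon and cell guidance, was at 45.9, 52.9, 46.8 and 48.7 CPM against 27.3 to 42.8 with a median of 31.9, a log2 difference of -0.54 ± 0.12. Its relative in guidance, the semaphorin gene Sema5b, had -0.38 ± 0.09. The protocadherin gene Pcdhgb2 had -0.59 ± 0.14 and Scel, the gene of the cornified-envelope precursor sciellin, -0.67 ± 0.16. The 9 genes after Ciita ran from -0.83 (Tfap2a) to -0.30 (Sema5b) among the numbered libraries. Their negative sign there follows from how they were picked, since the numbered libraries are part of the 10. On the control diet Tfap2a and Serping1 had values of the other sign, 0.40 ± 0.21 and 0.31 ± 0.15.

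The higher genes are given in the same way. Pagr1a, a subunit of histone H3 lysine 4 methyltransferase complexes (chromosome 7, 127015033 to 127017352), was at 36.4, 34.4, 34.6 and 36.5 CPM in ConAstro and at 41.4 to 54.8 with a median of 50.6 in cKOAstro, a log2 difference of 0.45 ± 0.09 (edgeR, unadjusted p = 0.000372, adjusted p = 0.31). The ConAstro libraries lay close together while the cKOAstro libraries spread widely. Clk3, a kinase of splicing factors (chromosome 9, 57750624 to 57765860), was at 65.3, 65.8, 65.01 and 62.6 CPM against 71.2 to 97.0 with a median of 88.3, a log2 difference of 0.42 ± 0.09. Rbm8a, a core protein of the exon junction complex, was at 46.2, 42.9, 43.3 and 43.7 CPM against 50.2 to 66.5 with a median of 58.5, a log2 difference of 0.40 ± 0.09. For Clk3 the 3 Astro-named libraries were the highest. Cdk9, the kinase of the elongation factor P-TEFb, was at 52.8, 53.4, 51.01 and 53.4 CPM against 56.5 to 70.1 with a median of 66.3, a log2 difference of 0.30 ± 0.07. Pabpn1, the nuclear poly(A)-binding protein, was at 203, 222, 184 and 205 CPM against 231 to 393 with a median of 302, a log2 difference of 0.58 ± 0.14. Exosc6, a subunit of the RNA exosome, had a log2 difference of 0.41 ± 0.09. Mrps6 and Mrps7, proteins of the small mitochondrial ribosomal subunit, had 0.45 ± 0.10 and 0.33 ± 0.08. The low-count transcripts 1700029I15Rik and AI507597 had 0.80 ± 0.17 and 1.30 ± 0.29. AI507597 is annotated as antisense, and without a stated strand setting its reads cannot be told apart from those of its partner gene. Among the numbered libraries the 10 genes ran from 0.25 (Mrps7) to 0.84 (AI507597). Their positive sign there also follows from how they were picked. On the control diet AI507597 had 1.16 ± 0.63, close to its value on the SFN diet, and the other 9 ran from -0.04 (Mrps6) to 0.14 (1700029I15Rik).

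**Figure D2:**
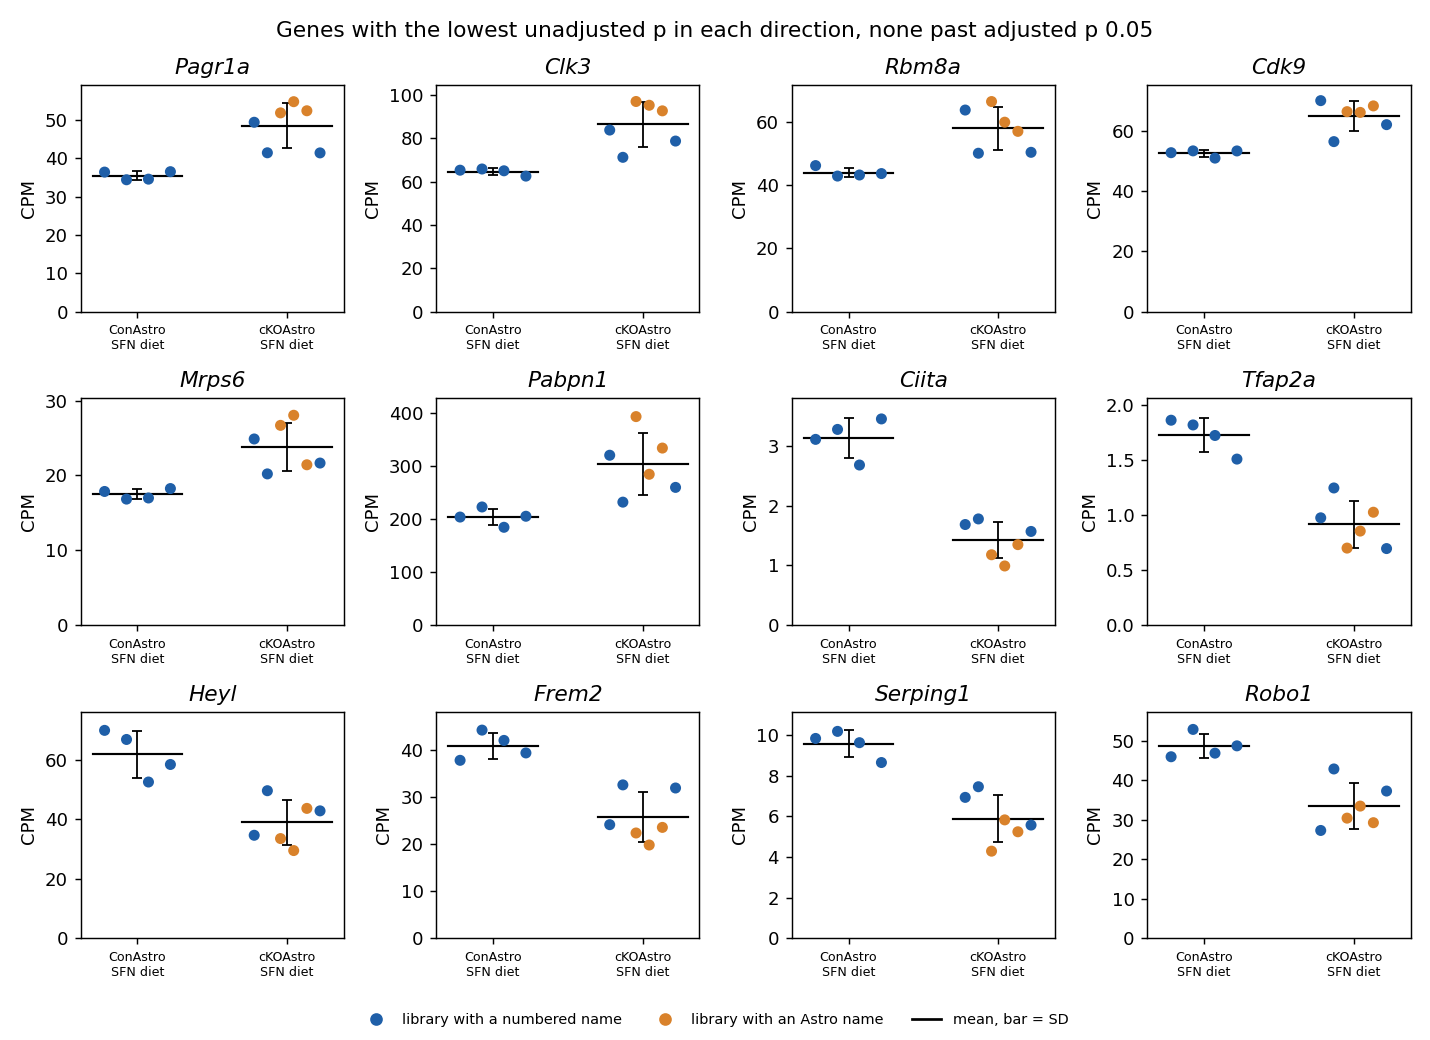
CPM of 12 of these genes in the 4 ConAstro and 6 cKOAstro libraries on the SFN diet, with the mean and SD as lines. The groups do not overlap because the genes were picked that way, and the Astro-named libraries often lie farthest from ConAstro, as for Clk3 and Ciita.

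Subunits of the respiratory chain had small positive differences throughout. None of the 35 tested subunits of NADH dehydrogenase (complex I) passed the adjusted test, but 35 of 35 had a log2 difference above 0 (50.9% of all genes did), the median was 0.27, and 20 had an unadjusted p under 0.05 against 9.01% of all genes. The groups did not overlap for 11 of them, against 2.87% of all genes. Summed over the list, ConAstro libraries held 1826, 2011, 2031 and 1866 CPM, and cKOAstro libraries 2079 to 2828. The lowest cKOAstro sum was above the highest ConAstro sum, and the highest came from cKOAstro replicate 1. Of the 2 libraries left out, the one labelled ConAstro held 2138 CPM and the one labelled cKOAstro held 2484. Both lay in the cKOAstro range, although the second had the rule genes at ConAstro levels. Ndufs6, one of these subunits, was at 31.04, 34.9, 38.1 and 30.6 CPM against 38.5 to 58.8 with a median of 41.2, a log2 difference of 0.43 ± 0.14. For complexes II to IV, 24 of 24 genes were above 0 with a median of 0.23, and for ATP synthase 14 of 14 with 0.20. Among the numbered libraries the medians were 0.29, 0.30 and 0.25, where 45.9% of all genes were above 0. On the control diet they were 0.05, 0.03 and 0.04, where 47.6% were above 0. The 13 genes encoded in mitochondrial DNA are not among the rows of the table, so only nuclear subunits were counted.

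Genes that make and break down protein had the same sign. All 76 tested cytosolic ribosomal protein genes were above 0, with a median of 0.27 and 18 at an unadjusted p under 0.05 (9.01% of all genes), and their sums were 6891, 7492, 6451 and 6435 CPM in ConAstro and 6935 to 10836 CPM in cKOAstro, so these groups overlapped. Of the mitochondrial ribosomal proteins 75 of 76 were above 0, with a median of 0.22, 45 at an unadjusted p under 0.05 (9.01% of all genes) and 21 without overlap (2.87%). All 31 proteasome subunits were above 0, with a median of 0.25, 25 at an unadjusted p under 0.05 (9.01% of all genes) and 18 without overlap (2.87%). Psmb4, a subunit of the proteasome core, was at 107, 106, 113 and 105 CPM against 122 to 168 with a median of 138, a log2 difference of 0.41 ± 0.10. The proteasome sums ran from 2168 to 2281 CPM in ConAstro and from 2356 to 2989 in cKOAstro and did not overlap. Of the 2 libraries left out, the one labelled ConAstro held 2415 CPM and the one labelled cKOAstro held 2776. Both lay in the cKOAstro range, although the second had the rule genes at ConAstro levels. Splicing factors were above 0 in 39 of 44 with a median of 0.17. Among numbered libraries the medians were 0.35, 0.21, 0.20 and 0.07 for the 4 lists, and on the control diet 0.04, 0.05, 0.03 and -0.02. With the name prefix as a block, where genotype is estimated from cKOAstro replicate 3 against ConAstro replicates 4 and 5, the medians were 0.12 for NADH dehydrogenase, 0.12 for cytosolic ribosomal proteins, 0.07 for mitochondrial ribosomal proteins and 0.09 for the proteasome, and the splicing factor median turned to -0.003. Beside the rule genes, no member of any list passed the adjusted edgeR test over the 10 libraries.

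The median difference also varied with gene length. Genes were put in 5 groups of like size by the summed length of their exons. The median log2 difference was 0.13 in the shortest group, then 0.07, 0.02 and -0.03, and -0.12 in the longest, and 66.2%, 62.5%, 54.6%, 43.5% and 27.4% of the genes were above 0. Among numbered libraries the ends were 0.10 and -0.15, and on the control diet 0.04 and -0.05. By library, the median of the shortest group minus that of the longest was -0.08, -0.04, -0.18 and -0.19 in ConAstro and -0.07 to 0.55 in cKOAstro, so the groups overlapped. Among the numbered cKOAstro libraries, replicates 3 and 7 (-0.07 and -0.06) lay within the ConAstro range and replicate 1 was at 0.55. Exonic length was known for 16024 of the 16705 tested genes. Its median was 1718 bases for NADH dehydrogenase subunits, 1806 for cytosolic ribosomal proteins, 2214 for mitochondrial ribosomal proteins and 2808 for proteasome subunits. These medians lie in the 2 shortest groups (up to 3505 bases). Splicing factors had a median of 6525 bases and the clustered protocadherins described below 5347. Both lie in the group of 5000 to 7296 bases, where the median difference was -0.03. The part of length in the values of these lists was not tested.

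**Figure D3:**
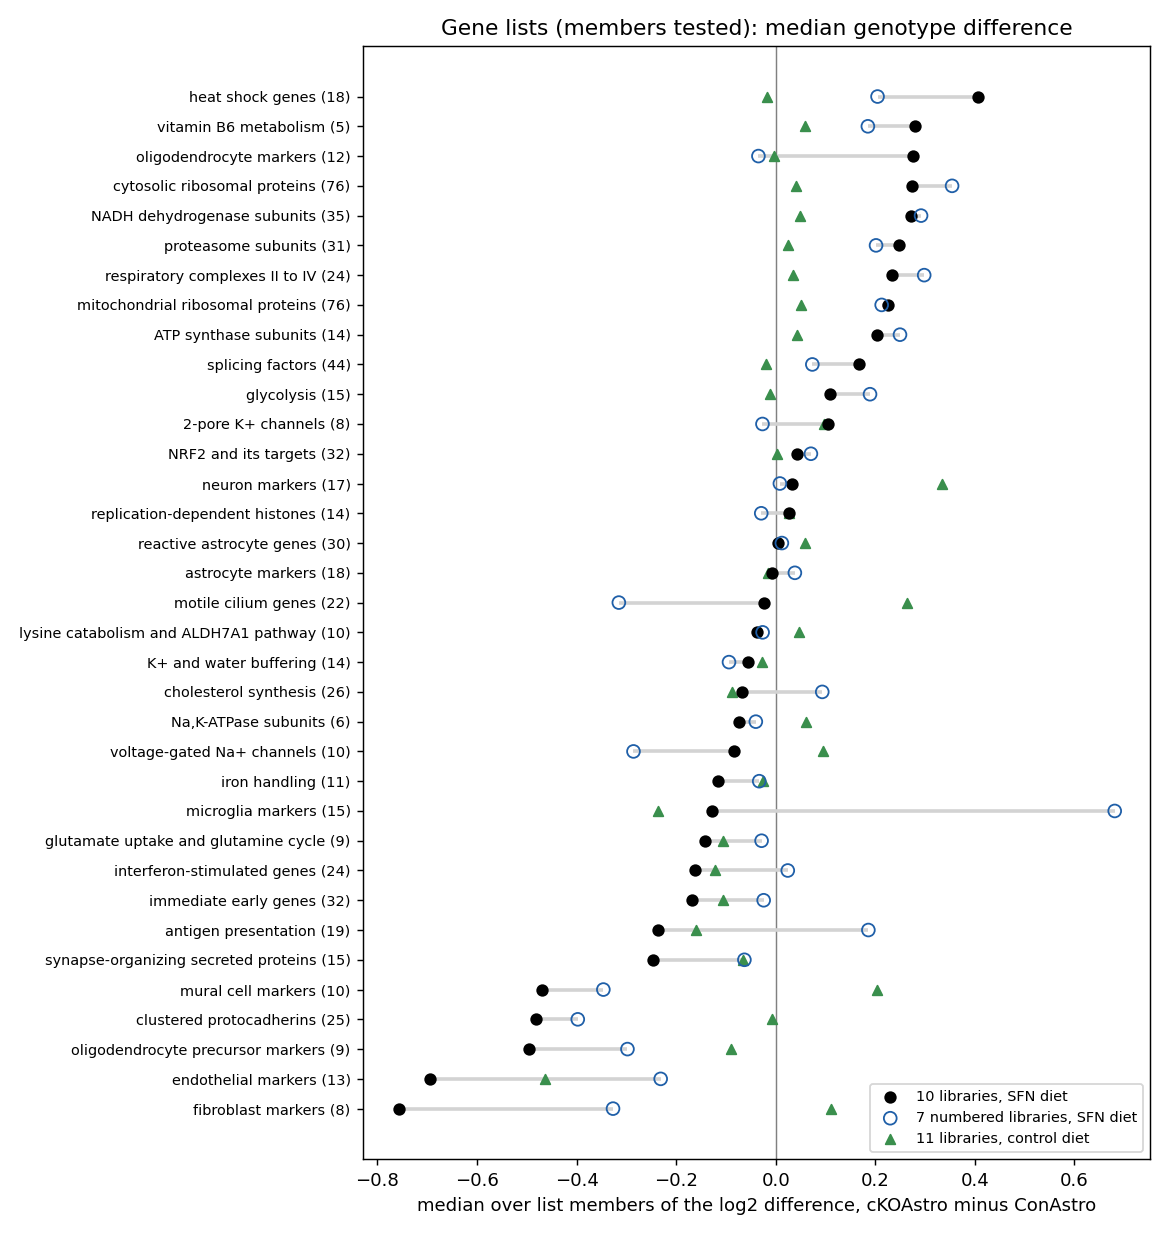
Median log2 difference (cKOAstro minus ConAstro) over the tested members of each list, for the 10 SFN libraries, the 7 numbered ones and the 11 control-diet libraries. NADH dehydrogenase subunits lie near 0.27 in the first 2 and at 0.05 on the control diet, and microglia markers go from -0.13 to 0.68 when the Astro-named libraries are left out.

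The chaperones of the heat shock response held the highest median among lists with at least 2 tested members. All 18 genes tested were above 0, with a median of 0.41 and 11 at an unadjusted p under 0.05 (9.01% of all genes). The median was 0.20 among numbered libraries (16 of 18 above 0), 0.14 with the prefix block and -0.02 on the control diet (8 of 18). Hspa1a and Hspa1b encode the same inducible HSP70 protein, and their near-identical copies (chromosome 17, 34969190 to 34972156 and 34956436 to 34959238) share reads, so the split between them is uncertain. The promoters below are shown because HSF1, the factor of the heat shock response, binds repeats of GAA and TTC. Each is the RefSeq GRCm38.p6 sequence of the 250 bases before the start, on the gene's strand, with matches to GAANNTTC in capitals. They come from chr17:34972157-34972406 (minus strand) for Hspa1a, chr1:55087898-55088147 (plus strand) for Hspe1 and chr5:135887669-135887918 (plus strand) for Hspb1.
Hspa1a: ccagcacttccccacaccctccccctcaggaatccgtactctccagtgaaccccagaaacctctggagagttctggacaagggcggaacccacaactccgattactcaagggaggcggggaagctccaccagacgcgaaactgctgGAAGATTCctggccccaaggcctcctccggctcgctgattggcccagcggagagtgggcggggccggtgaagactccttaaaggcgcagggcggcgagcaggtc
Hspe1: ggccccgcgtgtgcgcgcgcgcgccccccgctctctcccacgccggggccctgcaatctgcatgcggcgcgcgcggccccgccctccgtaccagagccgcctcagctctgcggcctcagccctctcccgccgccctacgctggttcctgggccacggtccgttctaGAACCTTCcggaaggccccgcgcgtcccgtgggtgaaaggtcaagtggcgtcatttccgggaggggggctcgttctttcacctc
Hspb1: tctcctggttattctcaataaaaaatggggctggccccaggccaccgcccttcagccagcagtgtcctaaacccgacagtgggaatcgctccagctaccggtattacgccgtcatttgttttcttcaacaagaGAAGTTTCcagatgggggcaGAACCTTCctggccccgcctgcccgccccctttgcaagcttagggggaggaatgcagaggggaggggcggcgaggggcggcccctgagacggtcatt
The first base of the match stands 104 bases before the start in Hspa1a, 84 in Hspe1, and 117 and 97 in Hspb1. The Hspa1b promoter is the same at 247 of 250 positions (98.8%). GAANNTTC reads the same on both strands and occurs in 5 of 13 heat shock promoters available (38.5%) and in 1061 of 17224 promoters of the table's genes (6.16%). Such a match describes the letters only.

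Hspa1a was at 15.4, 13.4, 29.9 and 22.4 CPM in ConAstro and at 26.9 to 70.1 with a median of 39.04 in cKOAstro, a log2 difference of 1.13 ± 0.30 (edgeR, unadjusted p = 0.00327, adjusted p = 0.31). Hspa1b was at 17.7, 13.4, 32.3 and 21.6 CPM against 33.7 to 85.7 with a median of 43.9, a log2 difference of 1.30 ± 0.31 (edgeR, unadjusted p = 0.00163, adjusted p = 0.31). Groups overlapped for Hspa1a, where ConAstro replicate 4 exceeded the lowest cKOAstro library, and did not overlap for Hspa1b. Hspe1, the small partner of the mitochondrial chaperonin, was at 27.6, 29.2, 26.6 and 26.4 CPM against 30.8 to 48.1 with a median of 35.8, a log2 difference of 0.46 ± 0.13. Hspd1, the chaperonin itself, was at 102, 98.4, 104 and 99.4 CPM against 110.1 to 151 with a median of 119, a log2 difference of 0.28 ± 0.09. Hspb1, a small heat shock protein with 2 matches in its promoter, was at 12.7, 9.89, 12.02 and 11.3 CPM against 9.61 to 15.8 with a median of 12.6, a log2 difference of 0.14 ± 0.17. The groups overlapped for Hspb1, and a link between promoter matches and levels was not tested. Hsph1, a nucleotide exchange factor for HSP70, reached 328 CPM in cKOAstro replicate 5 against a cKOAstro median of 112.

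On the control diet the HSP70 genes had the other sign, -0.78 ± 0.25 for Hspa1a and -0.85 ± 0.35 for Hspa1b. The difference between diets (interaction) was 1.91 for Hspa1a and 2.16 for Hspa1b with adjusted p-values of 0.359 and 0.422 (edgeR). No gene passed the edgeR interaction test (0% of 17264, with 1436 or 8.32% at an unadjusted p under 0.05), while DESeq2 called 25 and limma-voom 0. One control-diet library, cKOAstro replicate 2, goes against its male label with 1536 CPM of Xist, and without it the interaction again called 0 genes, with 1689 at an unadjusted p under 0.05. The mean CPM of Hspa1a was 20.3 in SFN-fed ConAstro and 44.3 in SFN-fed cKOAstro.

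**Figure D4:**
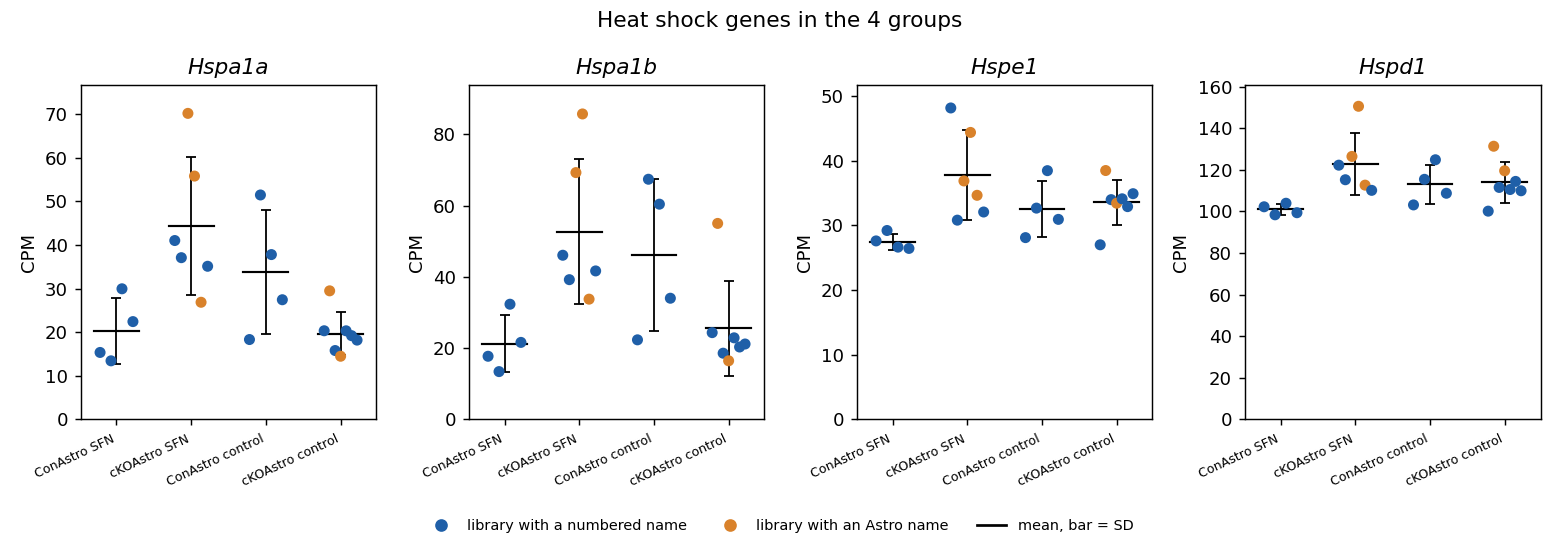
CPM of 4 heat shock genes in the 4 groups of genotype and diet, 1 point per library, with the mean and SD as lines. Hspa1a and Hspa1b lie higher in cKOAstro on the SFN diet and lower in cKOAstro on the control diet, while Hspe1 and Hspd1 lie close together on the control diet.

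The protocadherins of the clustered loci, adhesion proteins that give neurons and astrocytes their surface identity, had the reverse sign. Of 25 tested, 0 were above 0, the median was -0.48, 12 had an unadjusted p under 0.05 against 5.92% of all genes, and 5 did not overlap against 1.68%. Pcdhb21 was at 1.68, 1.56, 1.30 and 1.88 CPM in ConAstro and 0.37 to 1.14 with a median of 0.766 in cKOAstro, a log2 difference of -1.05 ± 0.27. Pcdhb19 had -0.70 ± 0.18. These genes share sequence between neighbours, so reads may be split among them. The median was -0.40 among numbered libraries (0 of 25 above 0), -0.01 on the control diet, and -0.21 with the prefix block. The sums were 604, 726, 767 and 635 CPM in ConAstro and 350 to 736 CPM in cKOAstro and overlapped.

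Genes of NRF2 and its targets had small differences of both signs between the genotypes. Of 32 tested, 21 were above 0 and the median was 0.04. The groups did not overlap for 0 of them, against 2.87% of all genes higher and 1.68% lower. At an unadjusted p under 0.05 there was 1 gene, higher in cKOAstro (9.01% of all genes). That gene was Fth1, the ferritin heavy chain, at 0.48 ± 0.21 over the 10 libraries and 0.12 ± 0.13 among numbered ones, with its highest level, 4001 CPM, in cKOAstro replicate 4 and 1610 to 2683 CPM in the other cKOAstro libraries. Nqo1, a quinone reductase and a standard target, was at 10.2, 10.2, 9.5 and 8.21 CPM in ConAstro and 6.42 to 10.3 with a median of 9.28 in cKOAstro, a log2 difference of -0.09 ± 0.14. Hmox1, heme oxygenase, had 0.16 ± 0.20, and 0.43 ± 0.16 among numbered libraries. Gclc, the catalytic subunit for glutathione synthesis, had -0.17 ± 0.09 and Slc7a11, the cystine transporter, -0.41 ± 0.20. Fth1 turned negative, -0.14, under the prefix block. The medians of the list were 0.07 among numbered libraries and 0.00 on the control diet.

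The pathway of the deleted enzyme gave mixed values. Of 10 tested genes of lysine catabolism other than Aldh7a1, 4 were above 0 with a median of -0.04. Gcdh, which acts in the same route downstream (glutaryl-CoA dehydrogenase), was at 33.3, 36.2, 34.1 and 34.9 CPM against 37.3 to 47.9 with a median of 43.7, a log2 difference of 0.31 ± 0.08 (edgeR, unadjusted p = 0.00308, adjusted p = 0.31), and 0.18 ± 0.07 among numbered libraries. Aass, the first enzyme of the route, had 0.16 ± 0.15. In vitamin B6 metabolism, 3 of 5 genes were above 0 with a median of 0.28. Pdxk, pyridoxal kinase, had 0.61 ± 0.29, and its highest value, 398 CPM in cKOAstro replicate 5, stood apart from the other 5, at 125 to 212. Prosc, the pyridoxal phosphate binding protein, had 0.38 ± 0.14 with 64.6, 64.7, 72.7 and 67.5 CPM against 71.1 to 116.

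Genes of uptake and excitability had medians of both signs. Of the glutamate uptake and glutamine cycle list without Slc1a3, 2 of 9 were above 0 (median -0.14), and the counts were 2 of 6 for Na,K-ATPase subunits (-0.07), 6 of 8 for 2-pore K+ channels (0.10), 2 of 10 for voltage-gated Na+ channels (-0.08) and 6 of 14 for K+ and water buffering (-0.06). Among numbered libraries the medians were -0.03, -0.04, -0.03, -0.29 and -0.09, so that of 2-pore K+ channels turned sign and that of voltage-gated Na+ channels was farther from 0. None of these members passed the adjusted test over the 10 libraries.

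Genes the study itself had pointed to were read as well, without weight as independent evidence. Foxd1, a forkhead factor, was at 10.2, 11.2, 7.04 and 7.70 CPM in ConAstro and at 3.45 to 7.35 with a median of 5.58 in cKOAstro, a log2 difference of -0.70 ± 0.21 (edgeR, unadjusted p = 0.00762, adjusted p = 0.31). It had 0.74 ± 0.16 on the control diet, and the interaction was -1.44 with an unadjusted p of 3.3e-05 and an adjusted p of 0.341. A630020A06 was at 0.17, 0.309, 0.112 and 0.0788 CPM against 0.364 to 0.770 with a median of 0.486, a log2 difference of 1.55 ± 0.39 (edgeR, unadjusted p = 0.00233, adjusted p = 0.31). Acer2, an alkaline ceramidase, had -0.23 ± 0.26, Vsig2 -0.57 ± 0.35 and Echdc3 0.03 ± 0.13, and their groups overlapped.

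Cells other than astrocytes were present and their markers moved with the Astro-named libraries. Astrocyte markers had a median of -0.01, with 9 of 18 above 0. They summed to 29025 to 38417 CPM in ConAstro and 25854 to 37777 in cKOAstro, the lowest in replicate 4. The Astro-named libraries were at 25854 to 32290 CPM. Oligodendrocyte markers summed to 24103 to 33249 CPM in ConAstro and 26804 to 63565 in cKOAstro, the highest in replicate 4. Microglia markers summed to 1150 to 3045 CPM in ConAstro and to 384 to 4264 in cKOAstro, with the 3 Astro-named libraries at 712, 384 and 398. The median of the 15 microglia markers was -0.13, and 0.68 among numbered libraries with 15 of 15 above 0.

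Markers of vessels and their sheaths had negative medians. Endothelial markers had a median of -0.69 (1 of 13 above 0), mural markers -0.47 (1 of 10), fibroblast markers -0.76 (0 of 8) and oligodendrocyte precursors -0.50 (1 of 9). Fibroblast sums were 483, 418, 484 and 408 CPM in ConAstro and 153 to 490 CPM in cKOAstro. The medians were -0.23, -0.35, -0.33 and -0.30 among numbered libraries, and 0.20, 0.14, 0.03 and 0.04 under the prefix block, so the sign of all 4 turned in the estimate that rests on cKOAstro replicate 3. The lower genes Heyl and Serping1 stand beside these values, and the part of vessel cells in them was not tested. Antigen presentation genes had a median of -0.24 over the 10 libraries and 0.19 among numbered ones, beside the microglia values. Ciita, the lowest member of that list, was negative in both, which follows from its pick for no overlap.

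**Figure D5:**
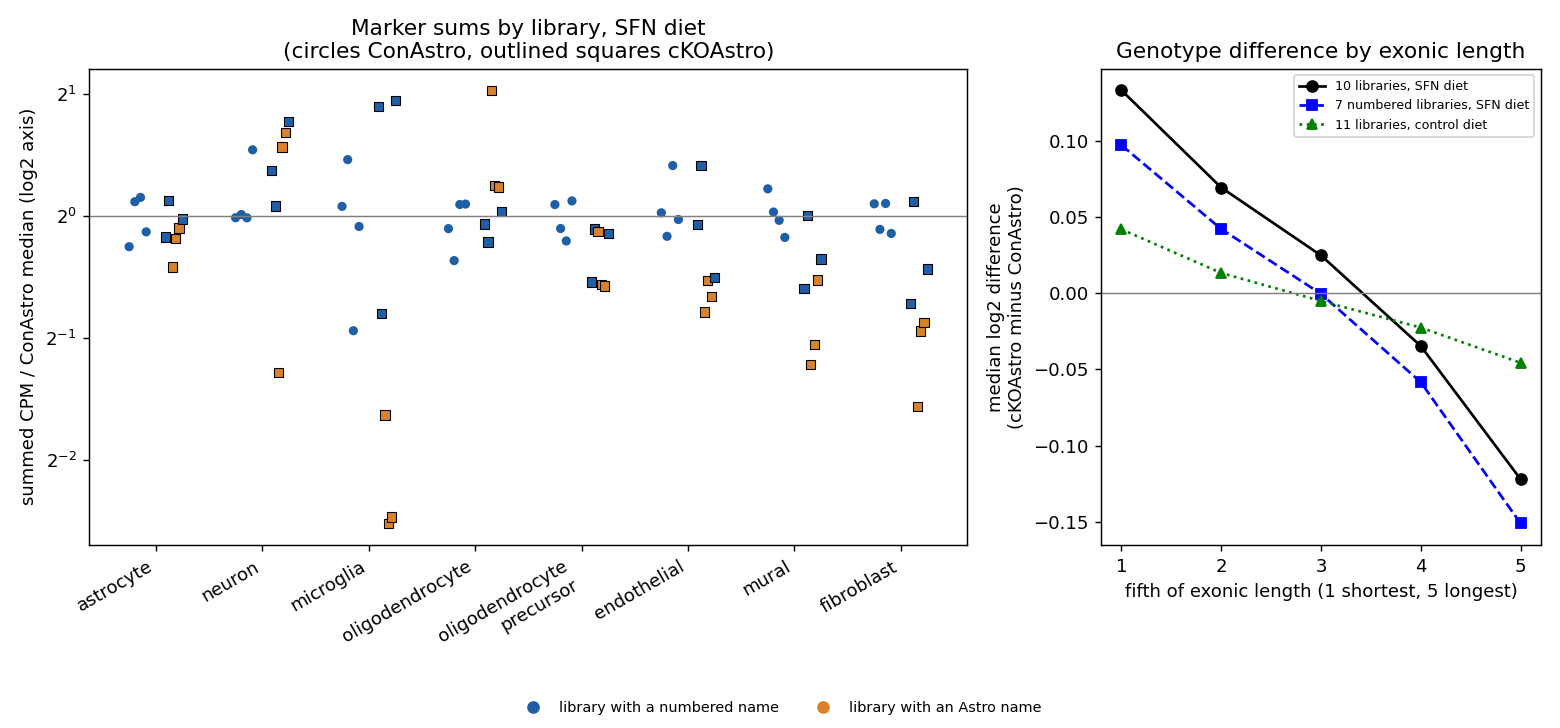
Left, summed CPM of each marker list relative to the ConAstro median (log2 axis), 1 point for each SFN library. Right, the median log2 difference over 5 groups of exonic length, which goes from 0.13 in the shortest to -0.12 in the longest over the 10 libraries.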

How the data were processed

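Astrocyte RNA of 23 mice was sequenced as poly(A) paired-end libraries. The authors deposited 1 table of raw counts per gene and library. The submitters' processing notes name FastQC, STAR and the mm10 build, while the versions, the annotation and the strand setting are not given in the sources used here. Counts were analysed with edgeR 4.0.16 in R 4.3.3: filterByExpr (minimum count 10), TMM factors, and the quasi-likelihood test with Benjamini-Hochberg adjustment at 0.05, fitted to 6 SFN-fed cKOAstro and 4 SFN-fed ConAstro libraries over all genes that passed the filter. CPM values share 1 TMM scale over the 23 libraries, and fold changes are log2 with their SE. The interaction used 21 libraries. DESeq2 1.42.0, limma 3.58.1 (voom), other filters and scalings, thinned counts, batch terms and leaving out each library were alternatives. The scripts were tested on simulated data, where all 3 tools recovered the changed genes and DESeq2 made more false calls than its threshold allows. Each mouse gave 1 library, so n counts mice, and totals ran from 75992248 to 219904257 counts in the 10 libraries. The libraries, the 37 lists and the questions were chosen with earlier results of these data known. Named genes were those of the rule, those the study pointed to, and the 10 higher and 10 lower genes of lowest unadjusted p with a mean of 1 CPM and no overlap, beside example members of the lists.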

Additional observations from a re-analysis of the deposited data

Results flagged for a closer look

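In 8 of 128 groups of 4 or 6 libraries checked, 1 library stood far from the others of its group, and chance alone gives about 1 in 20. Total counts were 219904257 in ConAstro replicate 3 against 75992248 to 83092604 in the other 3. The neuron marker sum was 1160 CPM in ConAstro replicate 5 against 788 to 803. Nqo1 was at 6.42 CPM in cKOAstro replicate 7 against 9.01 to 10.3 in the other 5. The other flagged values came from Astro-named cKOAstro libraries. In replicate 4, Atp1b3, a beta subunit of the Na,K-ATPase, was at 536 CPM against 236 to 323, the summed NRF2 list at 8487 CPM against 5709 to 6634, and the oligodendrocyte markers at 63565 CPM against 26804 to 37014. The NRF2 sum includes Fth1, which also had its highest level in that library. In replicate 5, Pdxk was at 398 CPM against 125 to 212, and Fkbp5, a glucocorticoid-induced co-chaperone, at 250.5 CPM against 4.58 to 87.9.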

How the results depend on the processing

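The count of genes called on the SFN diet was 2 by edgeR (1 higher, 1 lower) and 95 by DESeq2 (65 higher, 30 lower). It was 3 by limma-voom and 3 with 21 libraries in 1 fit (2 lower in each), 0 with all 12 libraries as labelled (0 higher, 0 lower) and 0 with the replicate block (0 higher, 0 lower). Leaving out 1 library gave 2 to 3 calls, with 1 to 2 lower. The count of 3 came without cKOAstro replicate 3, which added She, with 3676 genes at an unadjusted p under 0.05 in place of 2494. Under the replicate block 1175 genes had an unadjusted p under 0.05. The replicate numbers do not pair the libraries, since the deviations of same-numbered libraries correlated at -0.12, 0.16 and 0.01. DESeq2 called 5 genes among numbered libraries, 25 for the interaction and 8 on the control diet, where edgeR gave 2, 0 and 4. On the control diet, leaving out 1 library gave 2 to 4 calls, 2 without ConAstro replicate 4. The log2 difference in total counts, 0.0361, was -0.148 among numbered libraries and ran from -0.108 to 0.403 when 1 library was left out. The highest value, without the deepest library, ConAstro replicate 3, had an exact permutation p of 0.0238. With the name prefix as a block Fth1 was at -0.14, Fkbp5 at -0.082 and Kdr at 0.18, each against its sign over the 10 libraries, and the cause was not tested. Of 1092 alternative values of the 52 named genes with an unadjusted p under 0.05, 1089 kept their sign, but these genes were picked in the same libraries. Of 567 values of the other named genes, 517 did. The proteasome, NADH dehydrogenase, protocadherin and heat shock medians kept theirs in all 22 settings, a count that includes the main fit. So did the medians of the other respiratory chain, ATP synthase, ribosomal, vitamin B6, iron handling and immediate early lists.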

Other observations

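Other lists had medians closer to 0 or medians that moved with the Astro-named libraries. Glycolysis genes were above 0 in 13 of 15 with a median of 0.11, and in 15 of 15 with 0.19 among numbered libraries. Genes of cholesterol synthesis had a median of -0.07 over the 10 libraries and 0.09 among numbered ones. Secreted proteins that organize synapses had -0.25, with 3 of 15 lower at an unadjusted p under 0.05 (5.92% of all genes), and -0.06 among numbered libraries. Interferon-stimulated genes had -0.16 and 0.02, immediate early genes -0.17 and -0.02, and iron handling -0.12 and -0.03. Reactive astrocyte genes had 0.00, with 15 of 30 above 0, neuron markers 0.03, and replication-dependent histones 0.03. Motile cilium genes had -0.02 over the 10 libraries and -0.32 among numbered ones. None of these members passed the adjusted edgeR test. Of 5 red blood cell markers, 1 passed the filter on low counts.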
